A study of Homo sapiens with 16 samples.

Results

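The regions described here are the 1361 wild-type ChIP-Seq peaks that overlapped a peak of the DDX23-/- list by at least 1 bp, out of 1468 wild-type peaks and 5945 DDX23-/- peaks. They were chosen by that overlap, that is by the called positions in the same lists whose strength is compared, and each was paired with the overlapping DDX23-/- peak of highest fold. The fold is the authors' enrichment of a peak over its local background. The cells were HEK293T, a human embryonic kidney cell line, labelled wild-type, POLK-/- (knockout of the gene for DNA polymerase κ) or DDX23-/- (knockout of the gene for a helicase of the spliceosome), all untreated and all with Polk as the labelled antibody. The protocol names anti-FLAG gel without saying that these cells carry a tag, so the protein that was pulled down is uncertain, and whether each knockout is a single clone is not stated. Each genotype has 2 pulldown libraries in the labels and 1 peak list, so the difference between genotypes has no replicate check and no p-value is given for it. A peak list holds no expression values, so it cannot check the knockouts.

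DNA polymerase κ is a Y-family polymerase that copies past lesions in DNA. DDX23 is a DEAD-box helicase of the U5 small nuclear ribonucleoprotein, which takes part in activating the spliceosome. The genes of transfer RNAs are transcribed by RNA polymerase III from promoters that lie inside the gene, whose A and B boxes are contacted by the factor TFIIIC. The starts of many broadly expressed protein-coding genes lie instead in GC-rich sequence with short elements for factors such as Sp1 (GGGCGG), NF-Y (CCAAT), YY1 (ATGGCG) and ETS proteins (CCGGAA).

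The strongest shared peaks of both lists held a tRNA-type promoter. The stretches below are from GRCh37 (the sequence of hg19), run from 10 bases before the A box to 10 bases after the B box, and are shown because they lie in the strongest peaks of each list and, for NBPF24, in the peak with the largest rise in rank. Capitals mark the A box and the B box.
SCAND3-distal, chr6:28697089-28697161, plus strand: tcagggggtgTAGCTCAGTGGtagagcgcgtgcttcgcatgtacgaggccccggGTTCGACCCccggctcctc
HMGN4-distal, chr6:26556771-26556844, plus strand: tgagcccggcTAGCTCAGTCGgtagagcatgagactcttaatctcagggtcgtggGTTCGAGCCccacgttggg
ARMH4 intron, chr14:58706615-58706688, minus strand: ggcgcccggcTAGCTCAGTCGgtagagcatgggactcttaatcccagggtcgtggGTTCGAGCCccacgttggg
ZNF213-distal, chr16:3200672-3200745, plus strand: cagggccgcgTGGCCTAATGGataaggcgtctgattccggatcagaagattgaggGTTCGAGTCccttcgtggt
H3-7-distal, chr1:149294668-149294739, minus strand: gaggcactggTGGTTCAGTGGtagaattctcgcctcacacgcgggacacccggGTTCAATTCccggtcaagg
POM121L2-distal, chr6:27302771-27302844, minus strand: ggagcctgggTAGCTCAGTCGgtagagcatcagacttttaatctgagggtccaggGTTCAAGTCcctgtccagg
ZNF184-distal, chr6:27515533-27515605, minus strand: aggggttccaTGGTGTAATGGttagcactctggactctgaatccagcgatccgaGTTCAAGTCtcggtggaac
NBPF24-distal, chr1:147737384-147737456, minus strand: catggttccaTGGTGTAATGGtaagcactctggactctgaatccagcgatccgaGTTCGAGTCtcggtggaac
The first 4 and the last carry the B box as GTTCGANNC, and the H3-7, POM121L2 and ZNF184 sites carry it only in the wider form GTTCNANNC. From A box to B box, the HMGN4 and ARMH4 sites were identical at 52 of 54 bases, and the ZNF184 and NBPF24 sites at 51 of 53. Each stretch as printed, with its flanks, occurs 1 time in the assembled chromosomes.

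The shared peaks whose rank changed most lay mostly at gene starts. Peaks that were strong in the wild-type list, as most tRNA-type peaks were, had no room for a large rise. The next stretches come from peaks whose rank changed most, outside annotated untranslated regions, on the strand of the named gene. Capitals mark any match on either strand to the B box GTTCGANNC, to the elements of gene starts named above, to the E box CACGTG, or to TCTCGCGA, an element found at CpG island promoters. A search for the cyclic AMP response element TGACGTCA, for the TATA box TATAAA and for GCATGCGC, an NRF1 element, found no match in these stretches. The first 3 peaks stood higher in the DDX23-/- list and the last 4 lower.
OSBPL8 start, chr12:76953590-76953709: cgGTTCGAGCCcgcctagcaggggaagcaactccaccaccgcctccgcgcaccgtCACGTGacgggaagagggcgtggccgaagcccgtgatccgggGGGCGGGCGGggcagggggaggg
TAGLN2 start, chr1:159895334-159895453: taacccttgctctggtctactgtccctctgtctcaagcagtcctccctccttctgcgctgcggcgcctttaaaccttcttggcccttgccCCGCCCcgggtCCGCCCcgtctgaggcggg
WSB1-distal, chr17:25680741-25680860, plus strand: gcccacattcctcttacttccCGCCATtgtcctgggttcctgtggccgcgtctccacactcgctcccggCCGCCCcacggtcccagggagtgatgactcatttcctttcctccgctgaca
DZIP3 start, chr3:108308432-108308551: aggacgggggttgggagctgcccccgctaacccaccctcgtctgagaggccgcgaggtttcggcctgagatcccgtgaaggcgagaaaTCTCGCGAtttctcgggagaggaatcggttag
WAPL start, chr10:88281550-88281669: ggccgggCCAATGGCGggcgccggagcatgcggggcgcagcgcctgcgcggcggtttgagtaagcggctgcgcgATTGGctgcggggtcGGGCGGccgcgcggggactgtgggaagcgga
HNRNPK start, chr9:86595547-86595644: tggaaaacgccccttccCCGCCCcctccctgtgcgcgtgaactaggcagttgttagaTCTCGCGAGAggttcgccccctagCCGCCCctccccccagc
ENSG00000263809 start, beside RPL26, chr17:8286532-8286634: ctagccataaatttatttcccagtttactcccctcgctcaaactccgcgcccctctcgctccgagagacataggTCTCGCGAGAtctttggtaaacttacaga

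Shared peaks were in general stronger in the DDX23-/- list. The median fold was 7.71 in the wild-type list (quartiles 6.33 and 12.1) and 14.8 in the DDX23-/- list (9.40 and 26.2). The median ratio of DDX23-/- to wild-type fold was 1.68, with quartiles 1.25 and 2.31. The ratio was above 1 at 1192 peaks and below 1 at 169. It reached 1.5 or more at 825 peaks, 60.6% of the 1361 (95% Clopper-Pearson interval 58.0 to 63.2), and lay at 1/1.5 or less at 23 peaks, 1.69% (1.07 to 2.53). These 2 shares are the background for every count by class, gene list or chromosome below. Intervals of shares and fragment counts cover sampling of peaks and counting error only, not the spread between cultures.

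**Figure D1:**
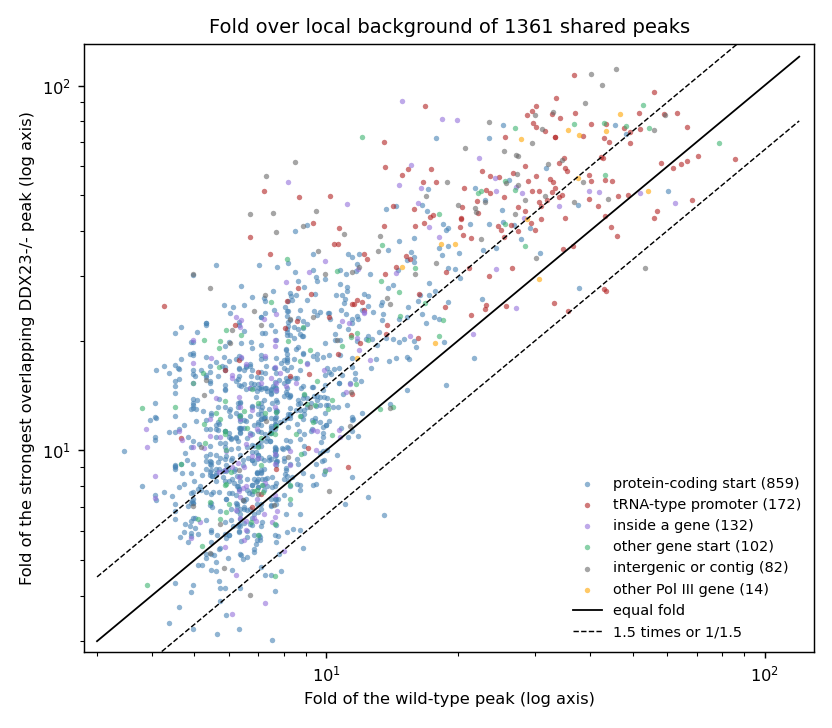
Fold of each of the 1361 shared peaks in the wild-type list (x axis) and of the strongest overlapping peak in the DDX23-/- list (y axis), both log axes, colored by class of position. The solid line marks equal fold and the dashed lines 1.5 times and 1/1.5, and 1192 points lie above the solid line.

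The libraries behind the lists differed in depth, which moves with this result. The deposited fold adds 1 to the scaled fragments at the summit and to the local background before dividing. It thus understates the enrichment of a shallow library more than that of a deep one. From the fold and p of each peak, whole fragment numbers were recovered. The DDX23-/- library was 3.96 times as deep as the wild-type one. Its genome-wide background under a summit was 1.94 fragments before scaling (1.28 after) against 0.57. The median shared peak rested on 14 fragments in the wild-type list and on 69 in the DDX23-/- list, and the median ratio of fragments was 4.24 (quartiles 3.27 and 5.37), against 3.40 for the genome-wide backgrounds. As scaled fragments over local background with nothing added, the median log2 difference shrank from 0.75 to 0.32. As fragments over the genome-wide background it was also 0.32. By this last measure 392 peaks stood at 1.5 times or more and 75 at 1/1.5 or less.

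By deposited fold, the difference was present at all strengths. With the shared peaks split into 5 groups of about 272 by wild-type fold, the median ratio was 1.68 in the strongest group (fold 15.3 to 85.5), 1.68, 1.65 and 1.51 in the middle ones, and 1.89 in the weakest (3.45 to 6.01). In fragments the order was different. The strongest group had 69 fragments in the wild-type list and 278 in the DDX23-/- list, with a median ratio of 3.50, and the weakest had 10 and 48, with a median ratio of 4.73. Over the genome-wide background, the median log2 difference was 0.04 in the strongest group (quartiles -0.39 and 0.37) and 0.48 in the weakest (0.19 and 0.85). The 100 peaks of highest wild-type fold had a median fragment ratio of 2.70 and a median fold ratio of 1.46, and the 100 of highest DDX23-/- fold had 3.06 and 2.11. Their median log2 differences over the genome-wide background were -0.33 and -0.16. A choice by the value of 1 list partly sets the ratio to the other, in the groups by wild-type fold as well. The highest number of fragments at a shared peak was 297 in the wild-type list and 390 in the DDX23-/- list. Over 300 fragments were found at 125 shared peaks in the DDX23-/- list and at 0 in the wild-type list. Whether an upper limit on fragments lowers the ratios of strong peaks was not tested.

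Ranks were taken by fold within each whole list and expressed as a percentile, where 0 is the strongest peak. Shared peaks stood at a median percentile of 48.7 in the wild-type list and of 14.0 among all DDX23-/- peaks, with a median rise of 21.1 points, and 1237 of them stood higher in the longer list. The lists differ in length, and the 1341 DDX23-/- peaks that were paired make up 22.6% of theirs. With only the 1468 peaks of smallest p in each list, the median rise was 0.051 points. Ranked among themselves only, the shared peaks changed by a median of -0.84 points (quartiles -13.8 and 11.2). Such a ranking makes rises and falls balance by construction, so a general rise could not appear in it. In that ranking 359 moved up by more than 10 points and 418 moved down by more than 10.

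The 12 largest rises in percentile were all of peaks near the bottom of the wild-type list, between percentiles 92.6 and 98.5, that stood between 4.78 and 11.9 in the DDX23-/- list. The low start is set by the choice, since a rise of 85.7 points or more needs a wild-type percentile above 85.7. Peaks high in the wild-type list, as most tRNA-type peaks were (median percentile 10.4), could not be among them. The largest was at the tRNA-type site 102414 bp from the start of NBPF24, printed above, whose fold was 4.26 in the wild-type list against 24.9 in the DDX23-/- list and 11.1 in the POLK-/- list. It rested on 11 fragments in wild-type and 113 in DDX23-/- cells, a ratio of 10.3 (95% exact interval 5.53 to 21.2). An intergenic peak 59699 bp from the start of WSB1 had folds of 4.97, 30.5 and 11.8 in the wild-type, DDX23-/- and POLK-/- lists and the highest fragment ratio of the 12, 11.9 (6.25 to 25.5). Both intervals lay above the median ratio of all shared peaks, as did those of 7.57% of the 1361, while 9.92% lay below it. The 12 rises and the 12 falls were picked by change in rank by fold, and the fragments are solved from the same fold and p, so a high or low fragment ratio at them is partly set by the choice.

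The other 10 peaks with the largest rises lay within 1 kb of a protein-coding start. At LRRC41, which encodes a leucine-rich repeat protein and starts within 1 kb of UQCRH of respiratory complex III, the fold was 4.96 in the wild-type list against 30.2 in the DDX23-/- list and 15.8 in the POLK-/- list. At TAGLN2, the gene for the actin-binding protein transgelin-2, the folds were 4.90, 19.9 and 6.24 in the same order. These were the only starts among the 10 whose fragment ratio had an interval above the median of all shared peaks, with 8.38 (4.97 to 15.1) and 9.70 (5.05 to 20.9). At GLRX3, which encodes a glutaredoxin of iron-sulfur cluster transfer, the folds were 4.52, 21.0 and 3.11, so that the POLK-/- fold was below the wild-type one. The POLK-/- peak there held 24 fragments against 9 in wild-type, at a local background of 5.0 against 1.21.

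The remaining 7 starts had fragment ratios whose intervals included the median. They were OSBPL8 (a lipid transfer protein, ratio 5.13), NFYC (a subunit of the CCAAT-binding factor NF-Y, 6.82), ASH2L (a subunit of histone H3 lysine 4 methyltransferases, 4.85), EIF5 (a translation initiation factor, 6.89), PRMT6 (an arginine methyltransferase, 4.07), MOB4 with the chaperonin gene HSPD1 (8.57) and SYCP2L (a relative of a synaptonemal complex protein, 8.43). Their wild-type peaks rested on 7 to 15 fragments. At OSBPL8, ASH2L and PRMT6 the local background, in scaled fragments as the peak caller used them, was 2.42 in the wild-type list and 1.37 to 1.57 in the DDX23-/- list, against medians of 0.97 and 2.00 over all shared peaks. LRRC41, described above, also had a higher background in the wild-type list, 2.42 against 1.96. The part of the background in these rises was not tested.

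**Figure D2:**
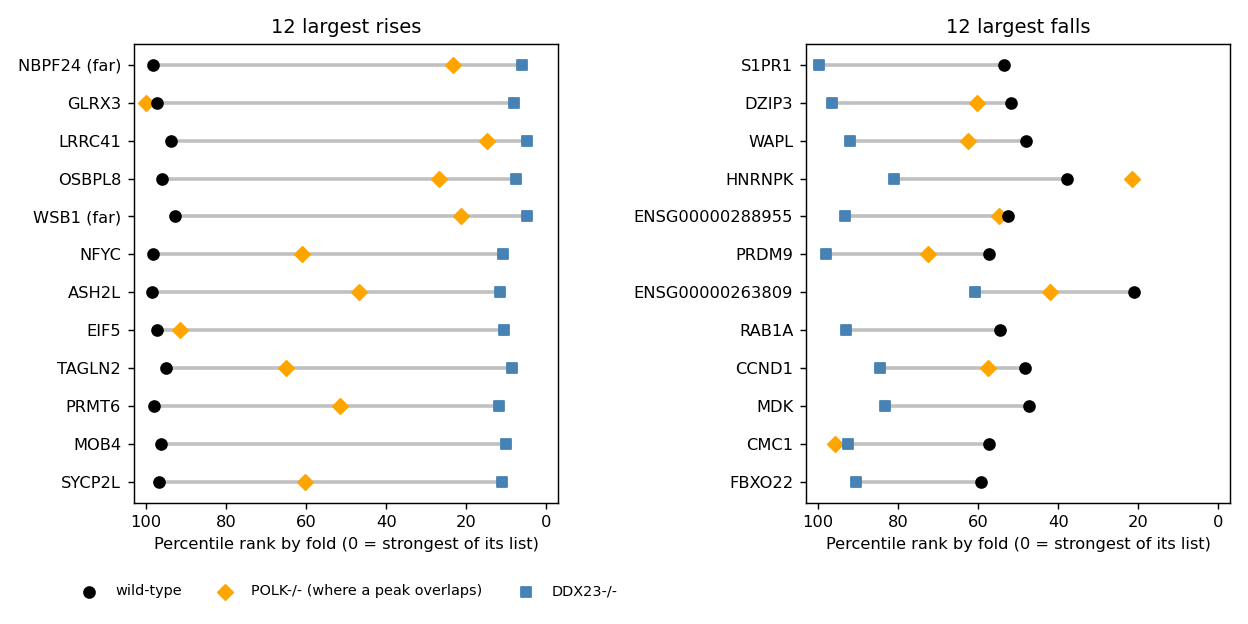
Percentile rank by fold in the wild-type (circles), POLK-/- (diamonds, where a peak overlapped) and DDX23-/- (squares) lists for the 12 largest rises and the 12 largest falls, with 0 the strongest peak of a list. The rises ran from wild-type percentiles above 92.6 to DDX23-/- percentiles below 11.9, and names with (far) are nearest genes of distal peaks.

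The 12 largest falls began in the middle of the wild-type list, between percentiles 21.2 and 59.4, and ended between 60.8 and 99.8. The largest was at the start of S1PR1, the gene for a sphingosine 1-phosphate receptor, whose fold was 7.53 in the wild-type list and 3.03 in the DDX23-/- list, with no overlapping peak in the POLK-/- list. DZIP3 and CIP2A share a start region whose folds were 7.63, 4.12 and 6.51 in the wild-type, DDX23-/- and POLK-/- lists. At WAPL, which encodes the protein that releases cohesin from chromatin, they were 7.88, 4.67 and 6.39. The peak at ENSG00000263809, 25 bp from its start and within 1 kb of the start of the ribosomal protein gene RPL26, was the strongest of the 12 in the wild-type list, with folds of 13.6, 6.65 and 7.94.

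At HNRNPK, which encodes an RNA-binding protein of the hnRNP family, the fold was 8.87 in the wild-type list against 5.40 in the DDX23-/- list and 11.7 in the POLK-/- list, the only POLK-/- value above the wild-type one among the 12. The others were ENSG00000288955, a long noncoding RNA, an intron of PRDM9 (a meiotic histone methyltransferase), RAB1A (a GTPase of transport from the endoplasmic reticulum), CCND1 (cyclin D1), MDK (the growth factor midkine), CMC1 (an assembly factor of cytochrome c oxidase) and FBXO22 (an F-box protein). Their folds were 7.12 to 8.02 in the wild-type list and 3.82 to 5.30 in the DDX23-/- list.

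The local background differed at the largest falls as well. The DDX23-/- background was 5.00 or more at 8 of the 12 peaks and its median over them was 5.00, against 2.00 over all shared peaks, whereas the wild-type background had a median of 0.68 against 0.97. The summit at HNRNPK held 14 fragments in wild-type and 64 in DDX23-/- cells, a ratio of 4.57 (2.54 to 8.83) that was slightly above the median of all shared peaks, and its DDX23-/- background was 7.0. Only RAB1A, with 11 and 19 fragments (ratio 1.73, 0.78 to 4.02), and MDK, with 13 and 21 (1.62, 0.77 to 3.51), had intervals below the median ratio of 4.24, at DDX23-/- backgrounds of 1.98 and 1.80. Ranked by fragments, 3 of the 12 stood lower in the DDX23-/- list. All 12 rises still stood higher, but by 31.8 to 81.5 points with a median of 70.8, against 87.2 by fold, and 2 of them were still among the 12 largest. Backgrounds that were whole numbers to within 0.01 made up 36.8% of the DDX23-/- list, 43.9% of the POLK-/- list and 0.613% of the wild-type list. Wild-type backgrounds also recurred at fixed values, such as 1.21, 1.82 and 2.42. A background that comes in such steps can rest on few fragments, and its counting error was not estimated.

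**Figure D3:**
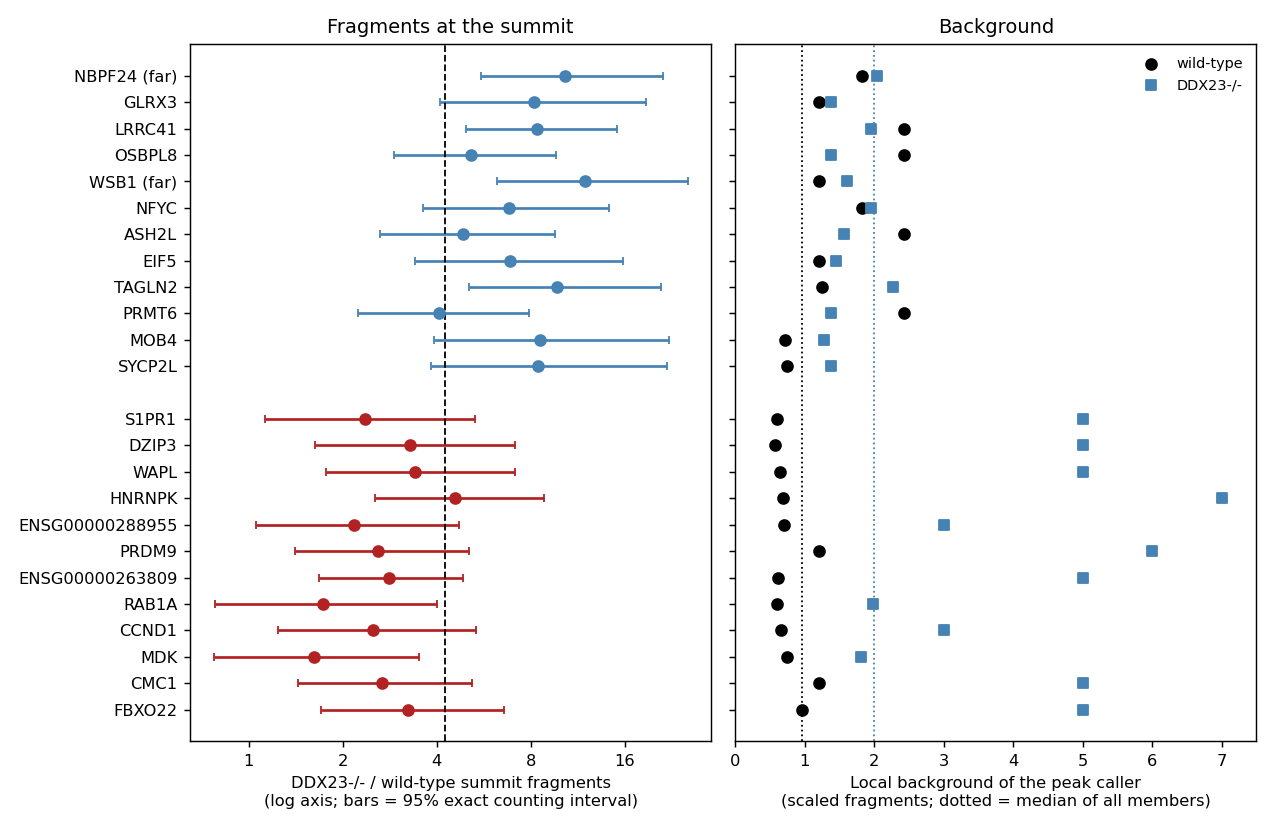
Left, ratio of DDX23-/- to wild-type fragments at the summit (log axis) with 95% exact counting intervals for the 12 largest rises (blue) and the 12 largest falls (red), the dashed line being the median of 4.24 over all shared peaks. Right, the local background in the wild-type (circles) and DDX23-/- (squares) lists in scaled fragments, with dotted lines at the medians over all shared peaks, 0.97 and 2.00. Of the 24 ratios, 18 have intervals that include the dashed line, 4 rises lie above it and 2 falls below, against 7.57% above and 9.92% below among all shared peaks.

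At the top of the lists, the order also changed. The 5 strongest wild-type peaks had lower folds in the DDX23-/- list, and the 5 strongest DDX23-/- peaks had higher folds there than in the wild-type list. The SCAND3-distal peak was first in the wild-type list, with a fold of 85.5, and number 66 in the DDX23-/- list, with 63.0, while its POLK-/- fold was 101. The H3-7-distal peak was first in the DDX23-/- list, with a fold of 111, and number 35 in the wild-type list, with 45.7, and had 35.8 in the POLK-/- list. Because the members of each set were picked for their rank in 1 list, a lower place in the other list is partly set by the choice.

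In fragments these 10 peaks did not separate in the same way. The DDX23-/- to wild-type ratio was 1.61 to 2.44 at the 5 strongest wild-type peaks and 1.81 to 2.91 at the 5 strongest DDX23-/- peaks, all below the median of 4.24. All 10 held 346 to 387 DDX23-/- fragments, near the highest number at any shared peak, 390. The part of an upper limit on fragments in these low ratios was not tested. The DDX23-/- background was 2.55 or more at the former and 1.28 to 1.61 at the latter. At HMGN4-distal, for example, 187 fragments in wild-type and 375 in DDX23-/- cells gave folds of 66.7 and 62.1. At ZNF184-distal, 185 and 385 fragments gave folds of 40.1 and 107. All 10 peaks held both boxes with the B box as GTTCNANNC, 6 of them in the stricter form GTTCGANNC, against 254 and 172 of the 1361 shared peaks. Of the 10, 6 were on chromosome 6, as were 186 of all 1361.

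By position, 859 of the 1361 shared peaks lay within 1 kb of a protein-coding start, 172 held a tRNA-type promoter (an A box 24 to 110 bp before a GTTCGANNC B box), 14 were at other genes of RNA polymerase III, 102 at other gene starts, 132 inside genes and 82 elsewhere. At protein-coding starts the median fold was 7.22 in the wild-type list and 12.4 in the DDX23-/- list, with 501 peaks (58.3%, 95% interval 54.9 to 61.6) at 1.5 times or more and 15 at 1/1.5 or less. At tRNA-type promoters the medians were 25.5 and 46.2, with 118 (68.6%, 61.1 to 75.5) and 2 peaks past these limits. The peaks elsewhere had medians of 13.2 and 38.3 and the highest share at 1.5 times or more, 60 of 82 (73.2%, 62.2 to 82.4). The shares at other gene starts and inside genes, 57.8% and 59.1%, were near the 60.6% of all shared peaks.

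Most of the peaks counted as elsewhere were also tRNA-like in sequence. With the B box widened to GTTCNANNC, 48 of the 82 held an A box and a B box, and the tRNA-type class grew from 172 to 254, of which 183 (72.0%) had 1.5 times the fold or more. The 34 that remained elsewhere had 20 such peaks (58.8%), near the share of all shared peaks. The GC content also differed, with a median of 46.1% in the wider tRNA-type class and 68.0% at protein-coding starts.

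The order of the classes depended on the measure. By fold, the median log2 difference was 0.85 at tRNA-type promoters and 0.69 at protein-coding starts, and by fragments over the genome-wide background it was 0.11 and 0.34. The wild-type local background was 1.59 at tRNA-type promoters and 0.83 at protein-coding starts, whereas the DDX23-/- background was 2.12 and 2.00. DDX23-/- fragments had an upper quartile of 347 at tRNA-type promoters and 85 at protein-coding starts, against a maximum of 390. The parts of background and of an upper limit on fragments in these differences were not tested.

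**Figure D4:**
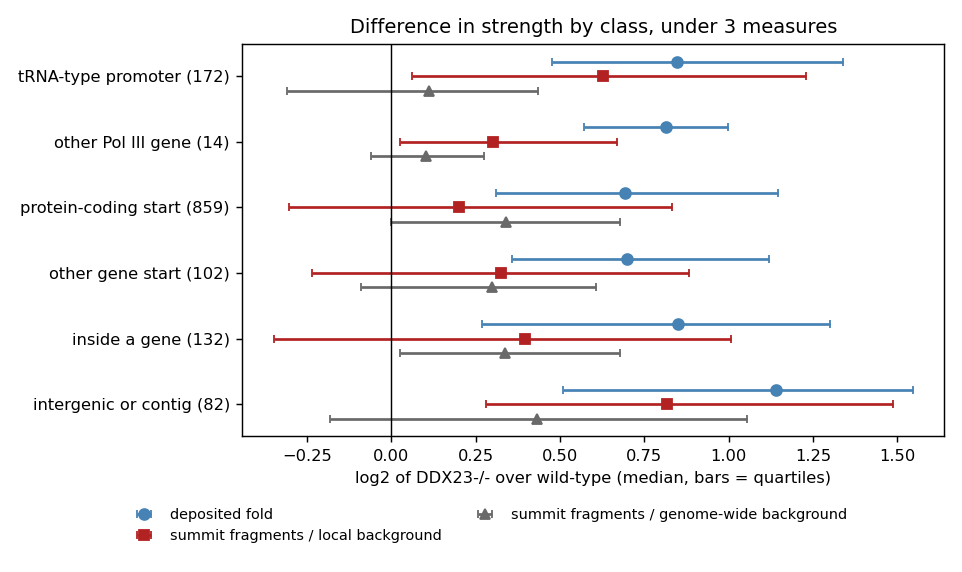
Median log2 difference, DDX23-/- minus wild-type, with quartiles as bars, for each class of position (number of peaks in brackets) by deposited fold (circles), scaled summit fragments over local background (squares) and summit fragments over genome-wide background (triangles). By fold the tRNA-type median of 0.85 is above the protein-coding median of 0.69, and by fragments over genome-wide background 0.11 is below 0.34.

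Shared peaks lay within 1 kb of the start of 5 of 35 replication factor genes and 13 of 93 spliceosome protein genes. The same counts were 5 of 87 cytosolic and 10 of 78 mitochondrial ribosomal protein genes, and 0 of 29 small nucleolar RNA host genes. The annotation held 20113 protein-coding starts, and 859 shared peaks were classed as lying at them. The 859 counts peaks, not genes, and leaves out peaks with a tRNA-type promoter, so it gives no like share for comparison. No shared peak lay within 10 kb of DDX23. The peak at the start of POLK, 191 bp from the annotated start and shared with CERT1, had a fold of 6.36 in the wild-type list, 6.71 in the DDX23-/- list and no overlapping POLK-/- peak. It rested on 9 and 29 fragments, a ratio of 3.22 (1.49 to 7.74). Of 5 shared peaks at replication factor genes, 3 had 1.5 times the fold or more and none 1/1.5 or less. POLD2, a subunit of DNA polymerase δ, had the highest ratio of them, from 5.08 to 21.1, on 9 and 85 fragments. At MCM6, of the replicative helicase, the folds were 7.68 and 12.9.

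Starts of spliceosome protein genes held 13 shared peaks, of which 4 (30.8%) had 1.5 times the fold or more and 1, HNRNPK, had 1/1.5 or less, against 60.6% and 1.69% of all shared peaks. Their median log2 difference was 0.51 against 0.75. The 4 were SNRNP40 (a protein of the U5 particle, 5.18 and 16.7), SNRNP25 (of the U11/U12 particle, 8.64 and 23.0, shared with POLR3K), HNRNPAB (9.36 and 24.2) and HNRNPH3 (10.4 and 16.7), each given as wild-type and DDX23-/- fold. SRSF3, a splicing factor rich in serine and arginine, had nearly the same fold in both lists, 10.1 and 10.0. It held 16 and 120 fragments before scaling, with a scaled DDX23-/- background of 7.0 against 0.69 in the wild-type list. The 4 shared peaks at genes of DEAD- and DEAH-box helicases were DDX41 (3.97 and 12.1), DDX42 (6.30 and 13.2), DDX19B (14.4 and 17.9) and DDX55 (18.8 and 15.1), with 2 at 1.5 times or more.

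Of 8 shared peaks at genes for RNA polymerase subunits, 5 had 1.5 times the fold or more and none 1/1.5 or less. POLR2E, a subunit common to the nuclear RNA polymerases, went from 4.96 to 16.2, and POLR1B, of RNA polymerase I, from 7.11 to 23.2. POLR3E, of RNA polymerase III, was the strongest of them in wild-type cells, at 48.8 and 50.1. At mitochondrial ribosomal protein genes the numbers were 5 of 10 and none of 10, at zinc finger genes 12 and 1 of 22, at cytosolic ribosomal protein genes 2 and 1 of 5, and at replication-dependent histone genes 1 and 1 of 4. Of the histone genes, H2BC5 had folds of 48.3 and 73.9, and H1-4 folds of 11.1 and 7.15. No shared peak lay at the start of a small nucleolar RNA host gene. With so few peaks a list, shares of this size have wide intervals, and none is called different from the background.

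Peaks were wider in the DDX23-/- list at 1253 of the 1361 positions. The median width was 334 bp in the wild-type list and 543 bp in the DDX23-/- list, with a median ratio of 1.49. The width ratio was 1.60 where the fold was 1.5 times higher or more and 1.17 at the 23 peaks with 1/1.5 or less. The DDX23-/- library was also 3.96 times as deep as the wild-type one, and the part of depth in the widths was not tested. The summits lay a median of 31 bp apart (quartiles 13 and 61), and 941 (69.1%, 95% interval 66.6 to 71.6) were within 50 bp. At tRNA-type promoters the median was 17 bp and at protein-coding starts 36 bp.

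Summits more than 500 bp apart were found at 21 positions, 17 of them where neighboring wild-type peaks overlapped the same DDX23-/- peak. In all, 38 wild-type peaks shared 18 DDX23-/- peaks. The largest shifts were at such groups of 3 peaks. Near HES7, a transcription factor of the Notch pathway, a wild-type peak of 499 bp lay inside a DDX23-/- peak of 2563 bp, with a shift of 1764 bp. At LINC00324 the DDX23-/- peak was 2994 bp wide and the shift was 1391 bp. The largest shift between a single pair was 1190 bp at KCTD2, in peaks of 1783 and 2018 bp.

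**Figure D5:**
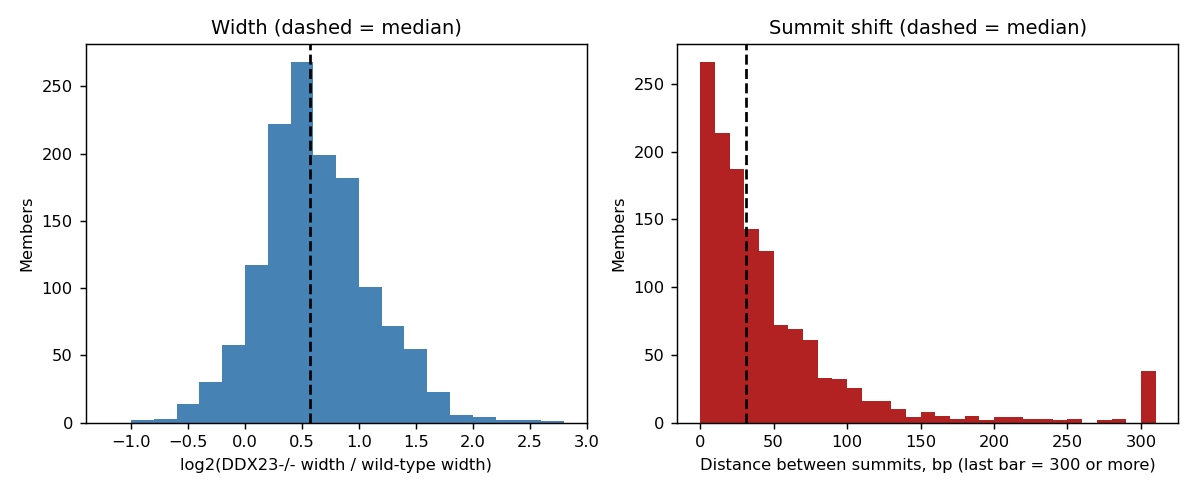
Left, number of shared peaks by log2 ratio of DDX23-/- to wild-type width. Right, number by distance between the 2 summits in bp, with the last bar holding 300 bp or more. Dashed lines mark the medians, a width ratio of 1.49 and a distance of 31 bp.

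The POLK-/- list, which the selection did not use, had an overlapping peak at 1123 of the 1361 positions. At these the median wild-type fold was 8.55, the POLK-/- fold 10.5 and the DDX23-/- fold 17.0, and the POLK-/- value lay between the other 2 at 558. The POLK-/- library was 2.37 times as deep as the wild-type one, so depth and fold have the same order in the 3 lists, and genotype and depth cannot be told apart. At the 172 tRNA-type promoters, all of which had a POLK-/- peak, the medians were 25.5, 40.1 and 46.2. For the 12 largest rises, 11 had a POLK-/- peak, 10 with a fold above the wild-type one and none above the DDX23-/- one. For the 12 largest falls, 8 had a POLK-/- peak, 7 of them with a fold below the wild-type one and 7 above the DDX23-/- one. The rises and falls were picked for extreme wild-type and DDX23-/- ranks. A POLK-/- fold between the other 2 at these peaks is therefore partly set by the choice.

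Short motifs in the 300 bp around the wild-type summit were counted on both strands in the 1360 peaks on assembled sequence. GTTCGANNC was present in 16.5% of the peaks with 1.5 times the fold or more, in 11.9% of those between the limits and in 2 of 22 below, against 1.06% of the same windows at 20113 protein-coding starts. Of the motifs of gene starts, GGGCGG was found in 60.5%, 64.9% and 15 of 22, CCAAT in 40.0%, 33.9% and 13 of 22, and TCTCGCGA in 3.52%, 4.68% and 3 of 22. At all protein-coding starts these 3 were present in 54.1%, 33.6% and 1.44%. Among shared peaks at protein-coding starts only, CCAAT was present in 41.1% of the 501 with the higher fold and in 32.7% of the other 358, and CCGGAA in 28.7% and 29.6%. Of the named peaks, TCTCGCGA was present in 2 of the 12 largest rises and 3 of the 12 largest falls, DZIP3, HNRNPK and ENSG00000263809. CCAAT was present in 2 and 7 of them, ATGGCG in 8 and 4, and GGGCGG in 8 and 8. Over the 1360 peaks the shares were 4.12% for TCTCGCGA, 38.0% for CCAAT, 23.5% for ATGGCG and 62.3% for GGGCGG.

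The fragment ratio also differed between chromosomes. On the 21 chromosomes with at least 20 shared peaks, its median ran from 3.27 on chromosome 3 (61 peaks) to 4.83 on chromosome 11 (68 peaks), and chromosome 1, with 181 peaks, had 4.82. The share with 1.5 times the fold or more was 59.0%, 63.2% and 66.3% on these, and the lowest share was 45.5% of 22 peaks on chromosome X. Of the 12 largest rises, 5 were on chromosome 1.

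The overlap that defined the members was 324 bp at the median. The 3 smallest were 34 bp at ERCC6L2-AS1 and 55 bp at TFCP2 and LINC00910, whose folds were 5.72 and 19.9, 5.47 and 5.96, and 6.11 and 3.56 in the wild-type and DDX23-/- lists. The nearest wild-type peaks outside lay 21 bp from a DDX23-/- peak near PYGL, 43 bp near MTFR1L and 136 bp near CALR3, with wild-type folds of 4.92, 7.47 and 5.96. The 107 wild-type peaks that were no members had a median fold of 6.99 on 12 fragments, against 7.71 on 14 for the members.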

How the data were processed

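Peak lists of wild-type, POLK-/- and DDX23-/- HEK293T pulldowns were compared, 1 list per genotype. The authors deposited for each peak a fold (a ratio of scaled fragments to local background, with 1 added to both), the −log10 of the p-value and of the q-value, and a score of 10 times the latter. The submitters' processing notes name Bowtie2, MACS2, bedtools, deepTools and hg19, without roles or versions. The control library, threshold and pooling are not given in the sources used here. The numbers within peak names do not match the sample number in 2 lists (wild-type and DDX23-/-), whose library is therefore uncertain, and control libraries were not analysed here.

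Fragments at the summit and background were solved from fold and p by the formulas of MACS2, with scale factors of 1, 0.736 and 0.660 for the wild-type, POLK-/- and DDX23-/- lists, and came out whole (within 0.01) at 1465 of 1468, 2451 of 2451 and 5945 of 5945 peaks. The median depth per summit was 14, 27 and 34 fragments. Depth was the genome-wide background divided by the shortest peak.

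Wild-type peaks were paired with the DDX23-/- peak of highest fold that overlapped by 1 bp. Percentile ranks used ties averaged within each list. Genes came from GENCODE 44 placed on GRCh37, the nearest start within 1 kb of the wild-type summit (protein-coding first), otherwise the gene holding the summit, otherwise the nearest protein-coding start. Other genes of RNA polymerase III lay within 500 bp. The named genes are the 12 largest rises and falls in percentile, the 5 highest folds in each list, POLK and DDX23, and members of the gene lists. Of these peaks, 1 is not reported here. KCTD2, HES7 and LINC00324 were chosen after their values were seen. Members and gene lists were chosen with earlier results of these data known. With 1 list per genotype no test was run, and shares carry exact binomial (Clopper-Pearson) 95% intervals. Fragment ratios carry exact binomial intervals. Python 3.11.15, pandas 2.3.3, scipy 1.17.1 and pysam 0.24.0 were used, and the alternatives tried are given in the closing section.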

Additional observations from a re-analysis of the deposited data

How the results depend on the processing

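No paired analysis was possible because 1 list per genotype was analysed, and no list could be left out in turn. Measures of summit fragments, and the B box GTTCNANNC, were added after seeing the data. The median log2 fold difference, 0.75, was 0.70 with a reciprocal overlap of 50%, 0.99 with the 1468 peaks of smallest p in each list, 0.32 as local enrichment with nothing added, 1.43 by −log10 p and 0.32 over the genome-wide background. Changing from fold to those 2 fragment measures gave 536 and 392 peaks at 1.5 times or more in place of 825, and 181 and 75 at 1/1.5 or less in place of 23. The latter were 14 at a q of 1e-05 or less and 3 with equal numbers of peaks. The median rise in percentile, 21.1, was 18.1 with reciprocal overlap, 23.7 at the stricter q, 23.7 by −log10 p and 25.0 by fragments. It was 0.051 with equal numbers of peaks and -0.84 among shared peaks only. In the last ranking rises and falls balance by construction, so its change of sign is no contrary result. The width ratio, 1.49, was 1.40 with reciprocal overlap and 1.56 with equal numbers, which gave a summit shift of 25 bp in place of 31. By class, local enrichment and enrichment over the genome-wide background gave 0.63 and 0.11 at tRNA-type promoters, 0.20 and 0.34 at protein-coding starts, and 0.82 and 0.43 elsewhere, where the B box GTTCNANNC gave 0.80 by fold. Longest overlap and chromosomes 1 to 22 and X moved none of these values beyond the interval of the median. The causes were not tested. Ranked by summit fragments, 9 of the 12 largest falls became rises, of 0.31 points at S1PR1, 29.9 at DZIP3, 29.6 at WAPL, 35.5 at HNRNPK, 6.78 at PRDM9, 10.2 at ENSG00000263809, 5.56 at CCND1, 8.30 at CMC1 and 23.5 at FBXO22. HNRNPK also rose by 3.02 when ranked by −log10 p. The 12 largest rises remained rises, of 31.8 points at PRMT6, 34.3 at OSBPL8, 36.0 at LRRC41 and 41.7 at ASH2L, and 2 of the 12 were still among the 12 largest by fragments, 6 when ranked among shared peaks only, 7 by local enrichment and 8 by −log10 p.

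The lists differ in depth by a factor of 3.96 and the wild-type peaks rest on a median of 14 fragments, so a ratio at a single weak peak is known only within a wide interval.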
